A study of Mus musculus with 8 samples.

Results

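The genes described here encode those subunits of the mitochondrial respiratory chain and ATP synthase that nuclear genes supply. They were chosen by symbol (Nduf with the letter a, b, c, s or v and a number, Sdha, Sdhb, Sdhc and Sdhd, Uqcr, Cox subunits from Cox4i1 to Cox8a, and Atp5) and by a mean of at least 1 CPM (counts scaled to the size of the library) over 8 libraries. Of 24421 gene symbols with counts deposited, 84 matched and 76 met the minimum: 35 in complex I, 4 in complex II, 8 in complex III, 12 in complex IV and 17 in complex V. All 76 passed the filter on low counts and were tested. Just inside the minimum was Cox7a1 with 2.93 CPM before scaling, followed by Atp5s with 7.02, and just outside was Cox4i2 with 0.696. The other 7 symbols below it were Cox6a2, Cox6b2 and Ndufa4l2, with means of 0.0157 to 0.649 CPM, and Cox7b2, Cox8b, Cox8c and Ndufs5, with 0 counts in every library. Atp5s and Atp5sl match the symbol rule but encode assembly-related proteins rather than subunits, and Ndufa4 is counted with complex I by its name although it is found in complex IV.

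The respiratory chain sits in the inner mitochondrial membrane and passes electrons from NADH (complex I) or succinate (complex II) through complex III to oxygen at complex IV. Complexes I, III and IV pump protons while they do so, and complex V, the ATP synthase, lets the protons back and makes ATP. All complexes but complex II also hold subunits encoded by mitochondrial DNA, so their assembly needs both genomes; the mitochondrially encoded genes are not analysed here. In the blood-forming system, stem and progenitor cells, leukaemic cells and mature granulocytes are known to differ in how much they rely on this pathway.

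The RNA came from C57BL/6 mouse bone marrow transformed by MLL-AF10, the product of a leukaemic translocation that joins MLL to AF10, and grown in Methocult semisolid medium with SCF, IL-3 and GM-CSF. One line, MAflox, is labelled as MLL-AF10 flox, with no word on Cre-ERT2. The other, MATIP, has Cre-ERT2 as well as MLL-AF10 and is homozygous for a floxed Tip60 gene. Kat5 is the formal symbol of Tip60, an acetyltransferase of histones, and Cre-ERT2 is a recombinase that acts once 4-hydroxytamoxifen (4-OHT) binds it. Both lines were kept for 4 days in 100 nM 4-OHT or in its solvent ethanol (EtOH), giving 4 groups of 2 libraries: MAflox EtOH, MAflox 4-OHT, MATIP EtOH and MATIP 4-OHT. How many animals or clones stand behind a line is not labelled, nor is a separate culture for each library; the p-values below therefore cover only the spread between these libraries, and that spread may be technical. Levels are CPM with TMM scaling. Fold changes are log2 values followed by ± their standard error (SE), from an edgeR quasi-likelihood fit of all 8 libraries. The words rose, fell and called are kept for genes with an adjusted p (Benjamini-Hochberg over 13722 genes) under 0.05.

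The libraries held 41101309 to 57312490 counts. Kat5 stood at 41.1 and 41.2 CPM in the MATIP EtOH libraries and at 8.11 and 8.32 CPM in the MATIP 4-OHT libraries (log2 −2.32 ± 0.09), and at 43.7 and 41.2 against 57.5 and 62.5 CPM in MAflox cells (log2 0.50 ± 0.07). Markers of maturation moved with 4-OHT in both lines, beside every result below. Of 14 listed mature neutrophil genes 13 were tested, and their summed level was 235 to 243 CPM in MAflox EtOH, 52359.8 to 56090.4 in MAflox 4-OHT, 872 to 1007 in MATIP EtOH and 53775 to 57866 in MATIP 4-OHT. All 13 rose in each line. Of 13 tested monocyte and macrophage genes 11 rose in MAflox and 13 in MATIP cells, and the sum of the 15 listed was 309 to 325, 5243 to 5324, 474 to 524 and 23872 to 24926 CPM in the same order, with C1qa at 0 counts. Of 13 progenitor genes 9 fell and 3 rose in MAflox cells, and 10 fell and 1 rose in MATIP cells, with sums of 12025 to 12365, 11724 to 11737, 17689.9 to 17945 and 5609.8 to 5984 CPM. The lymphoid list summed to 6.38 to 12.04 CPM over the 8 libraries, with Cd3e, Pax5, Cd8a and Ncr1 at 0, and the erythroid and megakaryocyte list to 1.87 to 22.7 CPM, with Hba-a1 and Hbb-bt at 0. The mast cell and basophil, eosinophil and stromal lists summed to 19.6 to 56.0, 4.09 to 77.1 and 59.8 to 91.3 CPM. The part of these shifts in the results below was not tested, and in bulk RNA a change in the mix of cells and a change of RNA per cell cannot be told apart.

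Promoter sequences were available for 65 of the 76 genes, as RefSeq windows of 300 bases on the build GRCm38.p6 (mm10) that run from 250 bases before the transcription start to 50 after it. Motifs of factors known to bind promoters of this pathway were searched on both strands, of which the E-box and the CRE read the same on either. The NRF1 core GCGCATGCG was found in 8 of the 65 genes (12.3%) against 1.95% of the 27025 genes with a window, the ETS or GABPA motif CCGGAAG in 16 (24.6%) against 9.93%, and the YY1 motif AAGATGGCG in 8 (12.3%) against 1.64%. The E-box CACGTG was found in 7 (10.8%) against 8.09%, the CRE TGACGTCA in 4 (6.15%) against 2.03% and the ERRA motif TCAAGGTCA in 2 (3.08%) against 0.466%. In all, 35 of the 65 genes held at least 1 of the 6 motifs against 21.0% of genes, and the median GC content was 57.7% in their windows and 52.7% in all windows. A match is a description of letters, not of binding. The parts of 6 windows that lie before the start and outside annotated exons are printed below 5′ to 3′ on the gene's strand, with matched motifs in capitals. These genes were taken for their patterns in the main fit. Cox6a1 and Atp5e rose in both lines, Uqcrh and Atp5l rose in MAflox and fell in MATIP cells, Atp5g3 fell in MATIP cells and Atp5b fell in both lines. Not all patterns held when a trend with transcript length and GC content was removed, as described further on. Atp5l and Atp5g3 were then lower in both lines. The MATIP fall of Uqcrh (log2 −0.09) and the MAflox rise of Cox6a1 (log2 0.05) were then not called.
Cox6a1 (chr5:115348982-115349129, minus strand): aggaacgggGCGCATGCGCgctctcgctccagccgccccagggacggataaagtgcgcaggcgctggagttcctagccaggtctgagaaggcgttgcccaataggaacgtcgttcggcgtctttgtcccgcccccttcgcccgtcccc
Atp5e (chr2:174464106-174464351, minus strand): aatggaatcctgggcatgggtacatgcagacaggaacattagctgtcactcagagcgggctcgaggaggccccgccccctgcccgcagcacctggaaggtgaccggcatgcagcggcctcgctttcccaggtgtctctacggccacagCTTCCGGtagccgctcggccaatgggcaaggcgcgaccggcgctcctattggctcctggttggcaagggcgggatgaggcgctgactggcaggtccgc
Uqcrh (chr4:116075072-116075268, minus strand): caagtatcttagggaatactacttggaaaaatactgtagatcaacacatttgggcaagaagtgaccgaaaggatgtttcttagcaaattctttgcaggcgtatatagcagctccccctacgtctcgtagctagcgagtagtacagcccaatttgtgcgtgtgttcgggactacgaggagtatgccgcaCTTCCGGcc
Atp5l (chr9:44920752-44920992, minus strand): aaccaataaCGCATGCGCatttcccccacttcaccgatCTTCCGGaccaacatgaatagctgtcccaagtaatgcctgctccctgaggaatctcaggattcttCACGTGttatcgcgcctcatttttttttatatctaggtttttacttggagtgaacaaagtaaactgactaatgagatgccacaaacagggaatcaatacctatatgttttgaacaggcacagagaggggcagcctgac
Atp5g3 (chr2:73911327-73911576, minus strand): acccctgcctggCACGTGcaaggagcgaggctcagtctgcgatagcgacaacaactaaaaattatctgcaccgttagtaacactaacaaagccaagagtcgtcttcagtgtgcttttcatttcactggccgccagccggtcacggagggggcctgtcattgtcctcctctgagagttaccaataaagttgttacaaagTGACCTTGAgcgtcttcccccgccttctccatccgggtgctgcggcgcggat
Atp5b (chr10:128083057-128083272, plus strand): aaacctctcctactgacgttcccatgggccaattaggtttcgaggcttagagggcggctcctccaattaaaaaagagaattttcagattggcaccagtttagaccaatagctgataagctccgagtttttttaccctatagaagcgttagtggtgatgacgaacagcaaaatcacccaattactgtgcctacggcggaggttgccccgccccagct
In the Cox6a1 stretch the capitals are overlapping matches to the NRF1 core on both strands. In Atp5e and Uqcrh they are the ETS motif on the reverse strand. Atp5l holds an NRF1 core, an ETS motif and an E-box, and Atp5g3 an E-box and an ERRA motif. Atp5b holds none of the 6 motifs in the stretch shown.
Of the genes with a window that rose in MAflox cells 12 of 41 held the ETS motif and 5 of 41 the NRF1 core, and of those that fell in MATIP cells 9 of 39 held the ETS motif and 5 of 39 the NRF1 core. Whether these shares differ was not tested.

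Summed over the 76 genes, the respiratory chain took 13744 and 13249 CPM in the MAflox EtOH libraries and 14464 and 14417 in MAflox 4-OHT, and 13402 and 12821 in MATIP EtOH and 9538 and 10230.1 in MATIP 4-OHT. The MATIP 4-OHT libraries were thus the lowest of the 8 and the MAflox 4-OHT libraries the highest. By complex the treated MATIP libraries were lowest throughout, while the treated MAflox libraries were above their controls for complexes I, III and IV and below them for complexes II and V. Complex IV went from 2161 and 2057 to 2846 and 2803 CPM in MAflox cells and from 2069 and 1981 to 1810.2 and 1947 CPM in MATIP cells. Complex V, the most abundant in counts, went from 6121 and 5991 to 5536 and 5571 CPM in MAflox cells and from 5891 and 5654 to 3585 and 3785 CPM in MATIP cells.

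**Figure D1:**
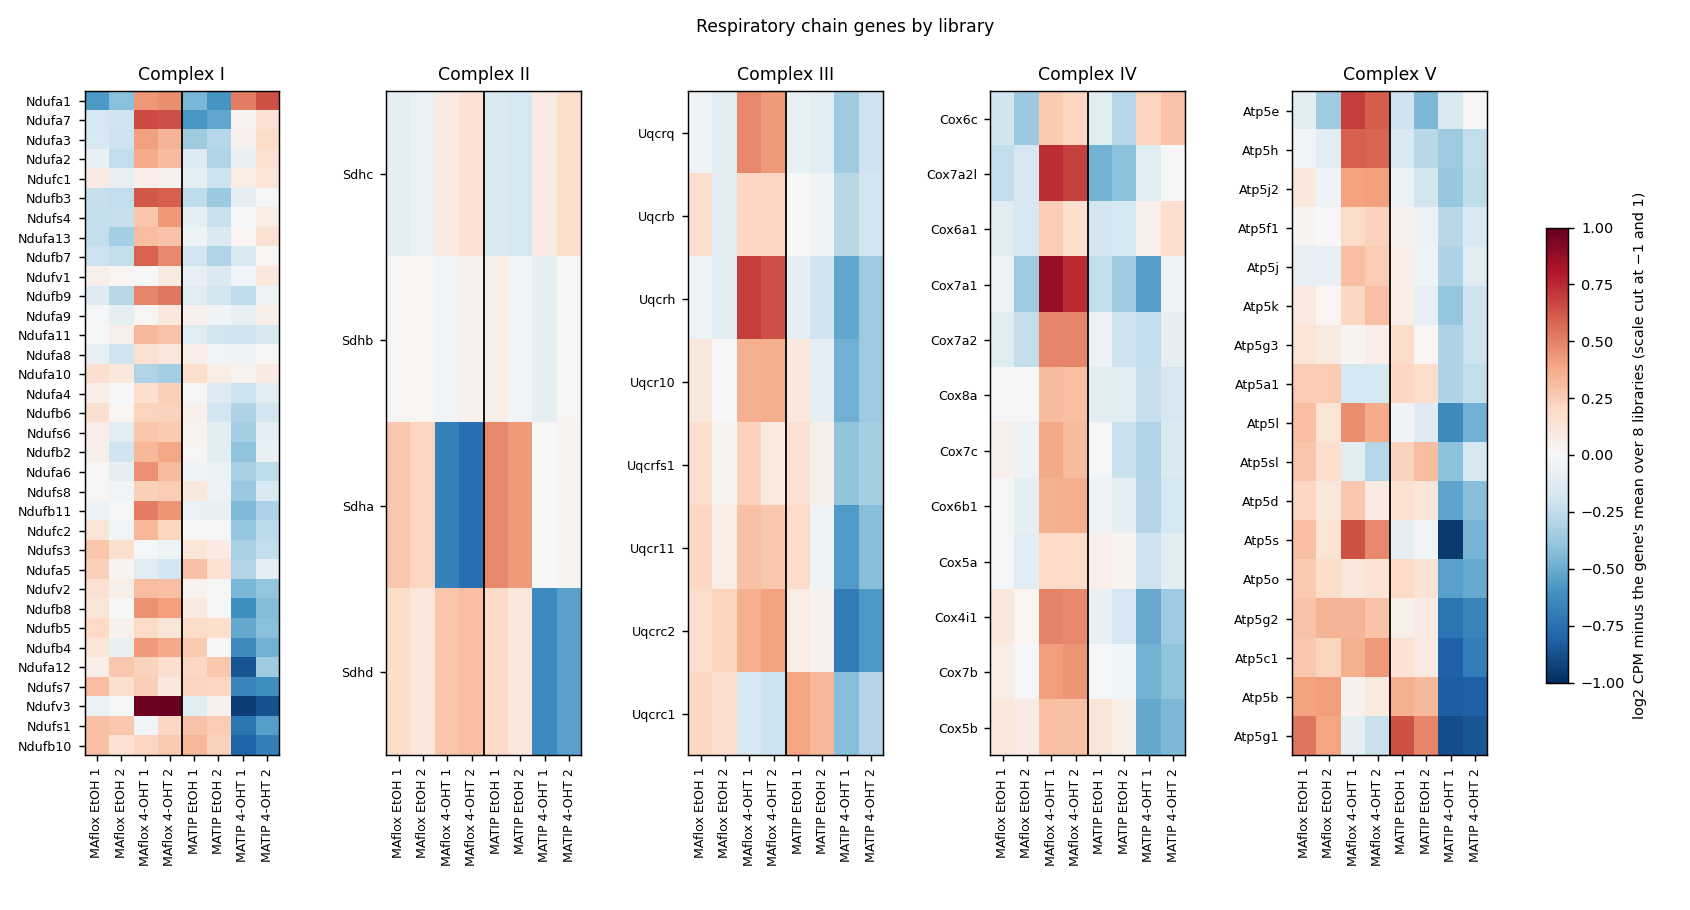
Rows are 75 of the 76 genes, sorted within each complex by the response of MATIP cells, and each column is 1 of the 8 libraries. Colour gives log2 CPM minus the gene's mean over the libraries, and a black line separates the lines. The MAflox 4-OHT columns are mostly red and the MATIP 4-OHT columns mostly blue, except for genes such as Ndufa1 and Cox6c near the top of their panels, which are redder with 4-OHT in both lines. Colours are capped at a difference of 1 either way.

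4-OHT was compared with EtOH first in MAflox cells, whose Kat5 was not lowered. Of the 76 genes 48 rose and 10 fell, with a median log2 change of 0.24. Over all 13722 genes tested 33.1% rose and 32.1% fell, with a median of 0.02. All 12 complex IV genes rose (median 0.41), as did 22 of 35 in complex I (4 fell), 4 of 8 in complex III (1 fell), 8 of 17 in complex V (4 fell) and 2 of 4 in complex II (1 fell). This count moved with the scaling. With library totals in place of TMM, which puts the median of all genes at −0.15 in MAflox and −0.13 in MATIP cells, 30 rose and 19 fell, beside 25.8% and 40.7% of all genes. When a trend of the fold changes with GC content and transcript length was fitted over all genes and taken out, 18 rose and 35 fell, with a median of −0.09, beside 32.8% and 32.2% of all genes.

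Respiratory chain transcripts are short. Their annotated principal transcripts had a median of 870 bases against 2873 for all tested genes, and 72 of the 76 were shorter than that median. All tested genes were put into 5 bins of equal size by length, and the bin of the shortest (up to 1605 bases) holds 61 of the 76. In MAflox cells this bin had a median log2 change of 0.30 and the bin of the longest −0.36, and the 61 genes alone had 0.30. In MATIP cells the same bins had medians of −0.09 and 0.10, and the 61 genes had −0.21. Across the 76 genes the rank correlation of length and log2 change was −0.48 in MAflox, −0.36 in MATIP cells and 0.02 for the difference of the responses, given as a description since genes are not independent replicates. Whether the length trend comes from the libraries or from the cells was not tested.

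**Figure D2:**
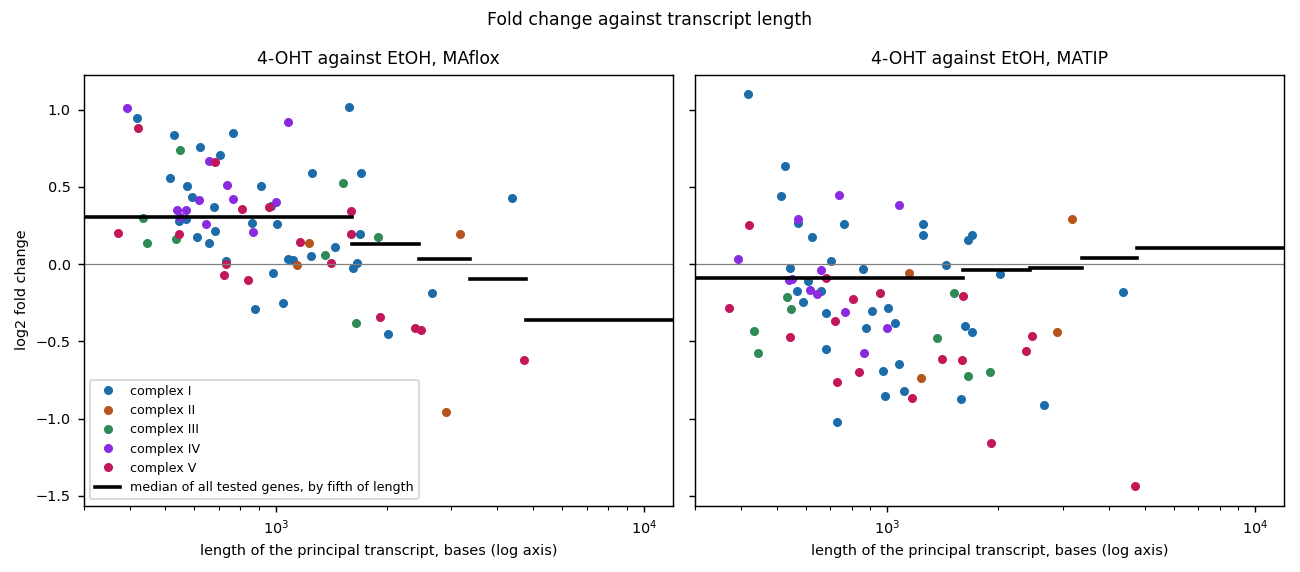
Points are the 76 genes, coloured by complex, with transcript length in bases on a log axis against the log2 fold change of 4-OHT against EtOH in MAflox (left) and MATIP cells (right). Black bars are medians of all tested genes in 5 bins of length. In MAflox cells the bars step down from 0.30 to −0.36 and the points lie around them, and in MATIP cells most points lie below the bars.

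The second comparison asked how 4-OHT changed the same genes in MATIP cells, where Kat5 fell. Here 15 genes rose and 46 fell, with a median of −0.26, beside 37.5% and 38.6% of all genes and a median of 0.00. All 8 complex III genes fell (median −0.45), as did 15 of 17 in complex V (1 rose; median −0.47), 16 of 35 in complex I (10 rose), 5 of 12 in complex IV (3 rose) and 2 of 4 in complex II (1 rose). With the length and GC trend removed 17 rose and 40 fell (median −0.17), beside 37.6% and 39.5% of all genes, and all 40 were among the 46. With library totals 7 rose and 59 fell, beside 33.2% and 43.7%. Calls in both directions depended on single libraries. Some rises lost their call without MATIP EtOH replicate 2 or MATIP 4-OHT replicate 2. Some falls lost theirs without MATIP 4-OHT replicate 1, when the median was −0.15. These were Ndufa6, Ndufs8, Uqcrb, Uqcrq, Cox5a, Cox6b1, Atp5f1, Atp5j, Atp5j2, Atp5k and Atp5s.

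The difference of the 2 responses, MATIP minus MAflox, was tested directly. It was lower for 59 genes and higher for 2, with a median of −0.57, beside 33.6% lower and 28.3% higher over all genes and a median of −0.03. The 59 comprised 25 in complex I, 1 in complex II, 8 in complex III, 10 in complex IV and 15 in complex V, and all 59 were also called with library totals. The 2 that were higher were Sdha and Ndufa10. With the length and GC trend removed 27 were lower and 19 higher, beside 34.2% and 25.5% of all genes, and those 27 were all among the 59. By complex, complexes III and V then had 5 and 6 lower against 1 and 1 higher, whereas complexes I and IV had 13 and 2 lower against 12 and 3 higher.

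Sorted by both calls, 24 genes rose in MAflox and fell in MATIP cells, 13 rose in both, 9 fell in both, 13 fell in MATIP cells without a call in MAflox cells and 11 rose in MAflox cells without a call in MATIP cells. These are 31.6%, 17.1%, 11.8%, 17.1% and 14.5% of the 76, beside 6.92%, 20.3%, 21.2%, 10.4% and 5.97% of all tested genes in the same classes. Of the other 6, Ndufa10 fell in MAflox cells only, Ndufc1 and Ndufv1 rose in MATIP cells only, and Ndufa9, Ndufb6 and Sdhb had no call. None fell in MAflox and rose in MATIP cells. All 24 of the first kind had a called difference, against 6 of the 13 that rose in both and 5 of the 9 that fell in both. With the length and GC trend removed, 26 genes fell in both lines, 9 rose in both and 2 (Ndufv3 and Uqcrq) rose in MAflox and fell in MATIP cells, beside 23.4%, 21.2% and 6.17% of all genes. Under that scaling 4 (Ndufa4, Ndufc1, Ndufv1 and Uqcrb) fell in MAflox and rose in MATIP cells, beside 3.94% of all genes. With library totals 18 fell in both, 6 rose in both and 16 rose in MAflox and fell in MATIP cells, beside 28.4%, 16.4% and 5.09% of all genes.

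**Figure D3:**
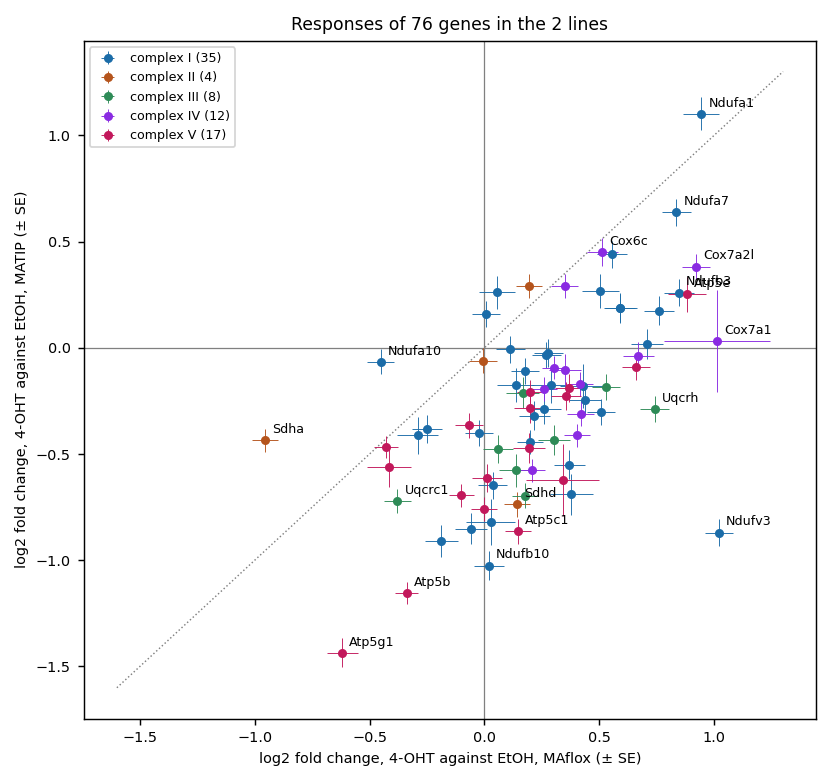
Each point is 1 of the 76 genes with the log2 fold change of 4-OHT against EtOH in MAflox cells on the horizontal and in MATIP cells on the vertical axis, bars are ± SE, and the dotted line marks equal responses. Most points lie below the dotted line, Ndufv3 farthest from it, and of the few above it Sdha and Ndufa10 had a called difference.

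Complex I takes electrons from NADH. Its catalytic core has 7 nuclear-encoded members here, which carry the flavin and the iron-sulfur clusters, and 28 accessory members stabilise it. Of the core genes 2 rose and 2 fell in MAflox cells, and 1 rose and 6 fell in MATIP cells. Of the accessory genes 20 rose and 2 fell in MAflox cells, and 9 rose and 10 fell in MATIP cells. Over all genes 33.1% rose and 32.1% fell in MAflox cells, and 37.5% and 38.6% in MATIP cells. The core shares in MAflox cells (28.6% each) and the accessory shares in MATIP cells (32.1% and 35.7%) were near these. In MAflox cells the core and accessory counts both moved with the scaling. None of the core genes rose and 6 fell there with the length and GC trend removed, and 10 accessory genes rose and 10 fell, and with library totals the counts were 0 and 5 for the core and 14 and 3 for the accessory genes. In MATIP cells they were 1 and 6 and 9 and 9 with the trend removed, and 0 and 6 and 3 and 18 with library totals. The difference between core and accessory genes was not tested.

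Ndufs1, the largest core subunit, stood at 159 and 156 CPM in MAflox EtOH, 127 and 149.6 in MAflox 4-OHT, 158 and 155 in MATIP EtOH and 78.2 and 88.6 in MATIP 4-OHT. The treated MATIP libraries were the lowest (log2 −0.91 ± 0.07, edgeR adjusted p = 1.08e-09), and the fall in MAflox cells (log2 −0.19 ± 0.07) lost its call without MAflox EtOH replicate 1 (edgeR adjusted p = 0.103), MAflox EtOH replicate 2 (0.0638) or MAflox 4-OHT replicate 1 (0.443). Ndufs7, which carries the last cluster before ubiquinone, fell in MATIP cells from 67.3 and 66.8 to 36.7 and 37.6 CPM (log2 −0.85 ± 0.07) with log2 −0.06 ± 0.07 in MAflox cells. Ndufv1, which binds NADH and the flavin, was the core gene that went the other way. It stood at 104 and 99.4 CPM in MATIP EtOH and 108 and 118 in MATIP 4-OHT (log2 0.16 ± 0.06, edgeR adjusted p = 0.0274), a call lost without MATIP EtOH replicate 2 (edgeR adjusted p = 0.189), MATIP 4-OHT replicate 2 (0.139) or MAflox EtOH replicate 2 (0.0504) and with library totals (0.731). In MAflox cells its value of 0.01 ± 0.06 had no call.

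Among the accessory genes Ndufv3, a small subunit beside the NADH-binding site, had the largest difference of all 76. Its levels were 101 and 104.6 CPM in MAflox EtOH and 208 and 209 in MAflox 4-OHT, against 97.3 and 109 in MATIP EtOH and 54.9 and 57.9 in MATIP 4-OHT. The untreated lines overlapped, and the treated ones moved to opposite sides (log2 1.02 ± 0.06 in MAflox and −0.87 ± 0.06 in MATIP cells; difference −1.89 ± 0.09, edgeR adjusted p = 2.29e-12). With the length and GC trend removed the values were 0.83, −0.89 and −1.72. Ndufv3 lies on chromosome 17 at 31520115 to 31531331 (plus strand, GENCODE M21 on mm10).

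Ndufa1, an X-linked subunit of the membrane arm, rose in both lines. It went from 32.0 and 35.6 to 64.4 and 65.9 CPM in MAflox cells (log2 0.94 ± 0.08) and from 34.8 and 31.6 to 68.0 and 74.2 CPM in MATIP cells (log2 1.10 ± 0.08), and the difference of 0.16 ± 0.11 had no call (edgeR adjusted p = 0.219), although it was 0.88 and called with the length and GC trend removed. Ndufa7 went from 58.7 and 57.6 to 104 and 103 CPM and from 44.2 and 46.0 to 67.3 and 72.9 CPM (log2 0.83 ± 0.06 and 0.64 ± 0.06). Ndufa1 and Ndufa7 were also higher in both lines with the length and GC trend removed. The other complex I genes that rose in both were Ndufa2, Ndufa3, Ndufa13, Ndufb3, Ndufb7 and Ndufs4, by 0.50 (Ndufa2) to 0.85 (Ndufb3) in MAflox and by 0.17 (Ndufb7) to 0.44 (Ndufa3) in MATIP cells on the log2 scale. In MATIP cells the rises of Ndufa2, Ndufa13, Ndufb7 and Ndufs4 were not called without MATIP EtOH replicate 2 or without MATIP 4-OHT replicate 2.

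Ndufb10, a membrane arm subunit, had the largest fall of complex I in MATIP cells, from 123 and 114 to 55.9 and 60.5 CPM (log2 −1.02 ± 0.07), beside 119 and 108 and 113 and 117 CPM in MAflox EtOH and 4-OHT (log2 0.02 ± 0.07). Ndufb4 rose in MAflox cells (log2 0.38 ± 0.09) and fell in MATIP cells (log2 −0.69 ± 0.09), and its difference of −1.07 ± 0.13 was the second largest of complex I. With the length and GC trend removed Ndufb4 had −0.002 and no call in MAflox cells. Its fall in MATIP cells (−0.65) and its difference (−0.64) stayed called. Ndufa10 was the only complex I gene with a difference called higher in the main fit. It fell in MAflox cells from 133 and 128 to 96.5 and 93.9 CPM (log2 −0.45 ± 0.06). In MATIP cells it stood at 134 and 125 and 122 and 125 CPM (log2 −0.07 ± 0.06), with a difference of 0.39 ± 0.08. With the length and GC trend removed its difference was 0.52, and 12 complex I genes were then called higher and 13 lower. Ndufa5 fell by 0.29 in MAflox cells and fell by 0.41 in MATIP cells on the log2 scale, but its call in MAflox cells was lost without MAflox EtOH replicate 1 (edgeR adjusted p = 0.133) or MAflox 4-OHT replicate 2 (0.0886).

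Complex II, succinate dehydrogenase, belongs to both the citrate cycle and the chain, and its 4 genes moved in different ways. Sdha, the flavoprotein that oxidises succinate, stood at 348 and 335 CPM in MAflox EtOH, 181 and 171 in MAflox 4-OHT, 403 and 388 in MATIP EtOH and 289.9 and 295 in MATIP 4-OHT. It fell in both lines, and more in MAflox (log2 −0.95 ± 0.06) than in MATIP cells (log2 −0.44 ± 0.05), a difference of 0.52 ± 0.08 (edgeR adjusted p = 9.31e-06) that kept its size (0.53) with the length and GC trend removed. Sdha lies on chromosome 13 at 74322254 to 74350280 (minus strand). Sdhb, the iron-sulfur subunit, stood at 103 and 104 CPM in MAflox EtOH, 100.5 and 105.4 in MAflox 4-OHT, 107 and 100.4 in MATIP EtOH and 95.6 and 103 in MATIP 4-OHT. The groups overlapped and neither change was called (log2 −0.01 ± 0.06 and −0.06 ± 0.06), although with the trend removed Sdhb was lower in MAflox cells (−0.33).

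Sdhc and Sdhd anchor complex II in the membrane. Sdhc rose from 131 and 134 to 148 and 155 CPM in MAflox cells and from 126 and 124 to 148 and 158 CPM in MATIP cells (log2 0.19 ± 0.06 and 0.29 ± 0.06). Its rise in MAflox cells was not called with library totals (log2 0.02). Sdhd fell in MATIP cells from 302 and 284 to 169.8 and 181 CPM (log2 −0.74 ± 0.06) and stood at 299.9 and 285 and 319 and 326 CPM in MAflox cells, where its small rise (log2 0.14 ± 0.06) was not stable: the call was lost with the replicate number as a block (edgeR adjusted p = 0.0608), without MAflox EtOH replicate 2 (0.255), MAflox 4-OHT replicate 1 (0.0625) or MAflox 4-OHT replicate 2 (0.0898), and the sign turned with library totals (−0.03) and with the length and GC trend removed (−0.21).

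Complex III moves electrons from ubiquinol to cytochrome c, and all of its 8 genes fell in MATIP cells. After removal of the length and GC trend 6 of them fell there and Uqcrb rose. In the main fit the calls of Uqcrb and Uqcrq there were lost without MATIP 4-OHT replicate 1. That of Uqcrb was also lost without either MAflox 4-OHT replicate. The 2 core proteins fell most there: Uqcrc1 from 392 and 377 to 223 and 244 CPM (log2 −0.72 ± 0.06) and Uqcrc2 from 254 and 247 to 148 and 162 CPM (log2 −0.70 ± 0.06). In MAflox cells the same pair parted, with Uqcrc1 falling from 345 and 337 to 267 and 257 CPM (log2 −0.38 ± 0.06) and Uqcrc2 rising from 272 and 281 to 307 and 317 CPM (log2 0.18 ± 0.06). The rise of Uqcrc2 was not called without MAflox EtOH replicate 1 or with the length and GC trend removed (−0.08). Uqcrfs1, the Rieske iron-sulfur protein, fell in MATIP cells from 159.6 and 149.9 to 109 and 114 CPM (log2 −0.48 ± 0.06) with log2 0.06 ± 0.06 in MAflox cells, a value that was −0.26 with the trend removed.

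Of complex III, Uqcrh and Uqcrq rose most in MAflox cells. Uqcrh, the hinge protein that helps cytochrome c dock, went from 155 and 149 to 259 and 251 CPM in MAflox cells (log2 0.74 ± 0.06) and from 150.0 and 140.1 to 112 and 125 CPM in MATIP cells (log2 −0.29 ± 0.06), and its difference of −1.03 ± 0.09 was the largest of complex III. With the trend removed the rise in MAflox cells stayed (0.34) and the fall in MATIP cells was not called (−0.09). Uqcrq rose by 0.53 ± 0.06 in MAflox cells and fell by 0.19 in MATIP cells on the log2 scale. Its fall was not called without MATIP 4-OHT replicate 1. Uqcr10 rose by 0.30 ± 0.07 in MAflox cells, while Uqcrb (0.17 ± 0.07) and Uqcr11 (0.14 ± 0.08) had no call there. With the trend removed the rise of Uqcr10 was not called (−0.008), and Uqcrb was called lower in MAflox cells (−0.38).

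Complex IV, cytochrome c oxidase, passes the electrons to oxygen. Its nuclear subunits surround a core encoded by mitochondrial DNA, and all 12 rose in MAflox cells, by 0.21 (Cox5b) to 1.01 (Cox7a1) on the log2 scale. With Ndufa4 counted here instead of with complex I, 13 of 13 rose. This direction did not hold under every scaling: with the length and GC trend removed 3 of the 12 were higher and 3 (Cox5a, Cox5b and Cox7b) lower in MAflox cells, with a median of 0.03. In MATIP cells Cox6c, Cox7a2l and Cox6a1 rose and Cox6b1, Cox5a, Cox4i1, Cox7b and Cox5b fell.

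Cox4i1, the largest nuclear subunit, stood at 447 and 419 CPM in MAflox EtOH, 583 and 575 in MAflox 4-OHT, 391 and 367 in MATIP EtOH and 291 and 320.2 in MATIP 4-OHT. The 4 groups did not overlap, with MAflox 4-OHT highest and MATIP 4-OHT lowest (log2 0.42 ± 0.06 and −0.31 ± 0.06; difference −0.73 ± 0.08). The MAflox rise was 0.09 and not called with the trend removed, while the MATIP fall was −0.27 and called. Cox5b, a zinc-binding subunit, went from 198 and 194 to 227 and 226 CPM in MAflox cells (log2 0.21 ± 0.05) and from 201 and 191 to 129 and 134 CPM in MATIP cells, the largest fall of complex IV there (log2 −0.58 ± 0.06). Cox7b had the largest difference of complex IV among genes of at least 5 CPM, −0.81 ± 0.08, and a value of −0.06 with no call when the trend was removed. The MATIP falls of Cox5a (log2 −0.19 ± 0.06) and Cox6b1 (log2 −0.17 ± 0.06) were lost with DESeq2 (adjusted p = 0.0575 and 0.124) and without MATIP 4-OHT replicate 1 (edgeR adjusted p = 0.19 and 0.342), and that of Cox6b1 also without MATIP EtOH replicate 1 (0.0649).

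Several complex IV subunits exist as isoforms, of which one is found in most tissues and the other mainly in heart and skeletal muscle. Per transcript length, as FPKM in MAflox EtOH, Cox7a2 stood at 190.1, Cox7a2l at 107 and the muscle isoform Cox7a1 at 6.16. The muscle or lung isoforms Cox6a2 and Cox4i2 lay under the minimum of 1 CPM and Cox8b had 0 counts, beside 308 FPKM for Cox6a1, 566 for Cox4i1 and 369 for Cox8a in MAflox EtOH. Cox7a1 was low in every library, at 2.68 and 2.16 CPM in MAflox EtOH, 5.09 and 4.65 in MAflox 4-OHT, 2.35 and 2.16 in MATIP EtOH and 1.90 and 2.68 in MATIP 4-OHT. It rose in MAflox cells (log2 1.01 ± 0.23), with 0.03 ± 0.24 in MATIP cells, and its called difference of −0.98 ± 0.33 was not called without MAflox EtOH replicate 2, MAflox 4-OHT replicate 1 or MATIP 4-OHT replicate 1. Cox7a2l, a gene linked to supercomplexes of complexes III and IV, had the largest rise of the abundant complex IV genes, from 112 and 118 to 222 and 213 CPM in MAflox cells (log2 0.92 ± 0.06). It rose less in MATIP cells, from 95.7 and 99.7 to 122 and 132 CPM (log2 0.38 ± 0.06). The difference was −0.54 ± 0.08, and −0.12 with no call when the trend was removed. Supercomplexes were not measured. Cox6c rose in both lines, from 126 and 112 to 173 and 166 CPM and from 133 and 119 to 168 and 176 CPM, with a difference of −0.06 ± 0.10 (edgeR adjusted p = 0.592). With the trend removed its change was 0.06 and not called in MAflox cells, and the difference was 0.55 and called. Cox7a2 rose in MAflox cells (log2 0.67 ± 0.07) and had log2 −0.04 ± 0.07 in MATIP cells.

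**Figure D4:**
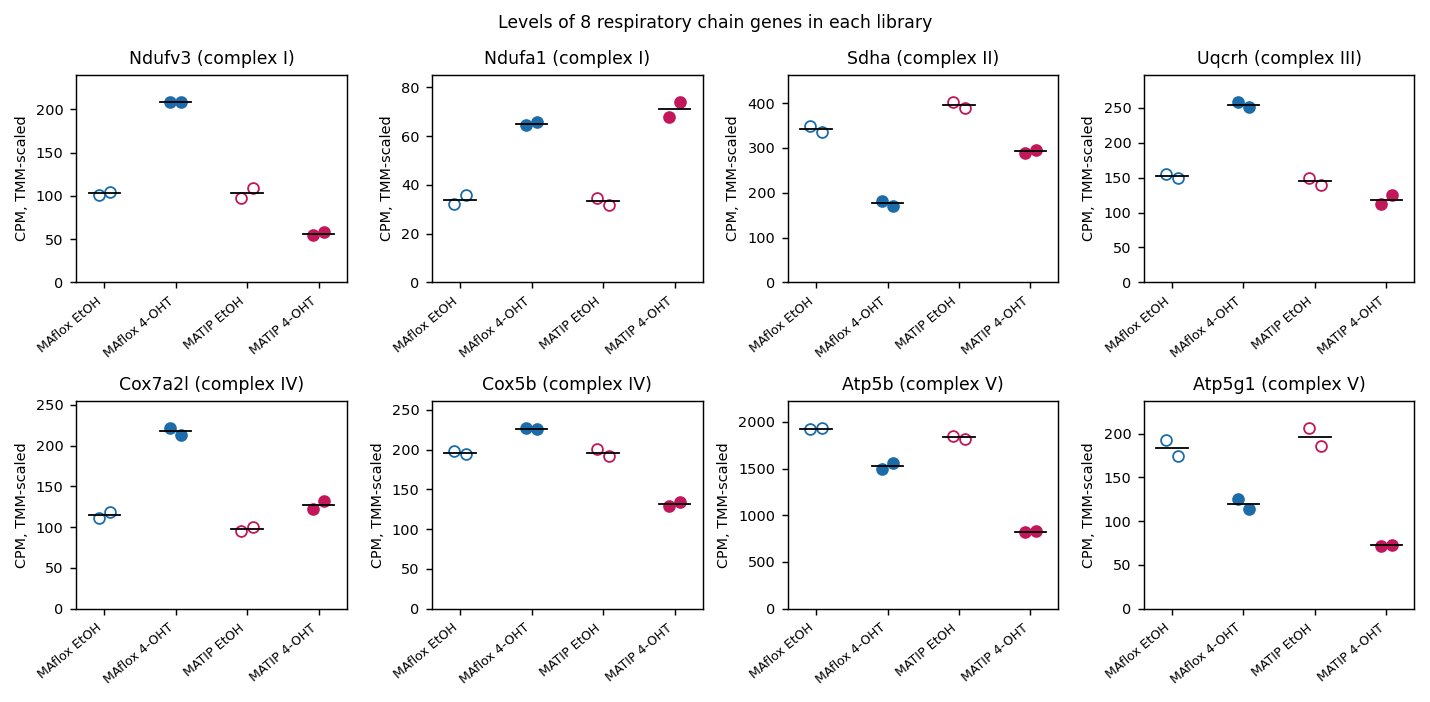
Levels of 8 genes as TMM-scaled CPM (vertical axis, from 0) in each of the 4 groups; points are libraries, open for EtOH and filled for 4-OHT, and bars are means of 2. Ndufv3 and Uqcrh move to opposite sides in the 2 lines, Ndufa1 rises in both, and Atp5b and Atp5g1 fall in both with the lowest levels in MATIP 4-OHT.

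Complex V is built of the catalytic F1 part, a stalk and a membrane part with a ring of c subunits, whose 3 genes Atp5g1, Atp5g2 and Atp5g3 encode the same mature protein. In MATIP cells 4 of 5 genes of the F1 part, 3 of 4 of the stalk and 6 of 6 of the membrane part fell, beside 38.6% of all genes. Several of these calls rested on 1 library. Without MATIP 4-OHT replicate 1 those of Atp5f1 and Atp5j in the stalk and of Atp5j2 and Atp5k in the membrane part were lost. In MAflox cells the parts were mixed, with 2 rises and 2 falls in the F1 part, 3 rises and no fall in the stalk and 3 rises and 1 fall in the membrane part. Over all genes 33.1% rose and 32.1% fell in MAflox cells. These MAflox counts did not hold with the length and GC trend removed, when they were 1 and 4 in the F1 part, 1 and 1 in the stalk and 0 and 4 (Atp5g1, Atp5g2, Atp5g3 and Atp5l) in the membrane part, while in MATIP cells 4, 3 and 5 genes still fell. With library totals the MAflox counts were 1 and 3, 2 and 1, and 1 and 3. Atp5b, the catalytic beta subunit and per transcript length the most abundant of the 76 genes in MAflox EtOH (1007 FPKM), stood at 1923 and 1935 CPM in MAflox EtOH, 1495 and 1556 in MAflox 4-OHT, 1853 and 1817 in MATIP EtOH and 820.4 and 826 in MATIP 4-OHT. It fell in both lines, and further in MATIP cells (log2 −0.34 ± 0.05 and −1.16 ± 0.05; difference −0.82 ± 0.07, edgeR adjusted p = 1.20e-08; −0.66 with the trend removed).

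Atp5a1, the alpha subunit, fell in both lines, from 1479 and 1477 to 1099 and 1097 CPM and from 1429.9 and 1399 to 1000.4 and 1047 CPM (log2 −0.43 ± 0.05 and −0.47 ± 0.05; difference −0.04 ± 0.07, edgeR adjusted p = 0.678). Alpha and beta alternate in the same ring. Their changes were −0.43 and −0.34 in MAflox cells and −0.47 and −1.16 in MATIP cells. Atp5c1, the gamma subunit of the rotor, went from 301 and 289 to 156 and 169 CPM in MATIP cells (log2 −0.86 ± 0.06). Its small rise in MAflox cells (log2 0.15 ± 0.06) was not called without MAflox EtOH replicate 1, MAflox EtOH replicate 2 or MAflox 4-OHT replicate 2, and was −0.24 with the trend removed. Atp5e, the smallest rotor subunit, rose in MAflox cells from 119 and 101 to 209 and 196 CPM (log2 0.88 ± 0.08). In MATIP cells it stood at 112 and 94.6 and 116 and 129 CPM, and its call there (log2 0.25 ± 0.08) was lost with library totals (edgeR adjusted p = 0.21) and without MATIP EtOH replicate 2 (0.217) or MATIP 4-OHT replicate 2 (0.0874). With the trend removed this value was 0.53 and called.

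The 3 c-subunit genes responded to different extents. Atp5g1 had the largest fall of the 76 genes in MATIP cells, from 207 and 186 to 71.8 and 73.2 CPM (log2 −1.44 ± 0.07), and fell in MAflox cells from 193 and 175 to 125 and 114 CPM (log2 −0.62 ± 0.07). Atp5g1 lies on chromosome 11 at 96068852 to 96075670 (minus strand). Atp5g2 fell in MATIP cells from 125 and 128 to 72.5 and 76.4 CPM (log2 −0.76 ± 0.06) with 147 and 152 against 152 and 147 CPM in MAflox cells, and Atp5g3 fell from 325 and 290.3 to 231 and 246 CPM (log2 −0.37 ± 0.06) with 315 and 305 against 291 and 300.2 CPM. In MAflox cells neither Atp5g2 nor Atp5g3 had a call, but both were called lower with library totals (log2 −0.17 and −0.24) and with the length and GC trend removed (−0.36 and −0.49). With the trend removed the fall of Atp5g3 in MATIP cells was −0.25, and the difference of its responses turned from −0.30 to 0.23 and was called in the other direction (edgeR adjusted p = 0.00685). Per transcript length Atp5g3 was the highest of the 3 in every group, at 429 FPKM in MAflox EtOH and 330.0 in MATIP 4-OHT, against 205 and 102 for Atp5g2. Atp5g1 was at 39.0 and 15.4, computed on an annotated transcript of 4715 bases. In the stalk Atp5h rose in MAflox cells from 139 and 131 to 215 and 212 CPM (log2 0.66 ± 0.06) and had log2 −0.09 ± 0.06 in MATIP cells. The 2 symbols that are not subunits, Atp5s and Atp5sl, both fell in MATIP cells, and without them 48 rose and 9 fell in MAflox cells, and 15 rose and 44 fell in MATIP cells.

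Without treatment the levels of the lines were close for these genes, though the number called lower depended on the processing. In EtOH 3 of the 76 were higher and 6 lower in MATIP than in MAflox cells, beside 20.3% and 11.7% of all genes, with a median difference of −0.03 on the log2 scale. The largest were Ndufa7, at 44.2 and 46.0 against 58.7 and 57.6 CPM (log2 −0.37 ± 0.06), Atp5l (−0.31 ± 0.07), Atp5g2 (−0.25 ± 0.06), Cox7a2l (−0.23 ± 0.06) and Sdha, at 403 and 388 against 348 and 335 CPM (0.21 ± 0.05). Several of these calls rested on 1 library or on the scaling. That of Atp5l was lost without MAflox EtOH replicate 1 (edgeR adjusted p = 0.0535), those of Cox7a2l and Sdha without MAflox EtOH replicate 2 (0.0805 and 0.0746), and those of Atp5g2 and Cox7a2l with the length and GC trend removed (0.0542 and 0.0614). None of the called differences reached 1.5-fold, beside 7.51% of all genes at least 1.5-fold higher and 5.25% lower. These counts moved with the processing, from 0 to 3 higher and from 3 to 12 lower over the fits that each left out 1 library (0 higher without MAflox EtOH replicate 2, 3 lower without MAflox EtOH replicate 1, and 12 lower without either MATIP 4-OHT replicate), and to 11 higher and 2 lower with the length and GC trend removed.

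Lists of neighbouring mitochondrial functions were read beside the subunits. For every list below, the shares over all genes were 33.1% higher and 32.1% lower in MAflox cells. In MATIP cells they were 37.5% and 38.6%. Whether a list differs from these shares was not tested. All 18 tested genes of protein import and inner membrane organisation fell in MATIP cells and 14 fell in MAflox cells, with no rise in either (median log2 −1.02 and −0.31). Of 14 citrate cycle genes 13 fell in MATIP and 10 in MAflox cells, again with no rise (median −0.70 and −0.29). Tomm40, the import pore of the outer membrane, went from 208 and 189 to 56.4 and 61.8 CPM in MATIP cells and from 195 and 177 to 102 and 92.8 CPM in MAflox cells. Idh2, the mitochondrial NADP-dependent isocitrate dehydrogenase, went from 232 and 233 to 79.0 and 83.3 CPM in MATIP cells (log2 −1.52 ± 0.06) and from 271 and 272 to 226 and 212 CPM in MAflox cells (log2 −0.31 ± 0.06). Ogdh, the first subunit of the 2-oxoglutarate dehydrogenase complex, had its larger fall in MAflox cells, from 297 and 305 to 196 and 181 CPM, against 376 and 378 and 339.6 and 329.8 CPM in MATIP cells. With the length and GC trend removed 15 import genes fell and 1 rose in MAflox cells and 18 fell in MATIP cells, and 13 and 12 citrate cycle genes fell.

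Assembly factors build the complexes and are not part of them. Their counts stand beside 33.1% higher and 32.1% lower of all genes in MAflox cells, and 37.5% and 38.6% in MATIP cells. For complex I 6 of 16 fell and 2 rose in MAflox cells, and 10 fell and 1 rose in MATIP cells. Ndufaf4 went from 59.2 and 61.3 to 35.1 and 36.2 CPM in MAflox cells and from 63.9 and 55.9 to 18.8 and 19.7 CPM in MATIP cells (log2 −0.76 ± 0.08 and −1.63 ± 0.08). The one rise in MATIP cells was Nubpl, which delivers iron-sulfur clusters to complex I (log2 0.60 ± 0.12), and Timmdc1 was among the rises in MAflox cells (log2 0.35 ± 0.09). For complex IV 8 of 18 fell and 7 rose in MAflox cells, and 12 fell and 1 rose in MATIP cells. Lrpprc, which stabilises mitochondrial messenger RNAs, fell in both lines, from 161 and 164 to 81.5 and 78.9 CPM and from 184 and 178 to 81.1 and 80.4 CPM. Pet100 rose in MAflox cells (log2 0.999 ± 0.09), and Cox14 was the one rise in MATIP cells (log2 0.19 ± 0.09, edgeR adjusted p = 0.049). For complexes II and III 4 of 10 rose and none fell in MAflox cells, and 1 rose and 6 fell in MATIP cells. Sdhaf2, which attaches the flavin to Sdha, rose in MAflox cells (log2 0.51 ± 0.06) and fell in MATIP cells (log2 −0.28 ± 0.06), Uqcc1 fell in MATIP cells (log2 −1.02 ± 0.07) and Ttc19 rose there (log2 0.27 ± 0.10). For complex V 1 rose and 1 fell of 4 in MAflox cells and 3 fell in MATIP cells, among them Fmc1 from 17.8 and 15.6 to 4.48 and 4.42 CPM and Atpaf2, which binds the alpha subunit during assembly (log2 −0.49 ± 0.07). The MAflox counts of these lists moved with the scaling. Once the length and GC trend was taken out, none rose and 9 fell for complex I, 4 rose and 9 fell for complex IV, 2 rose and 1 fell for complexes II and III and 1 rose and 2 fell for complex V. With library totals the same counts were 0 and 11, 4 and 9, 3 and 3 and 1 and 1. The rises in MATIP cells moved too. With the trend removed 2 rose and 10 fell there for complex I, and 2 rose and 12 fell for complex IV. For complexes II and III 3 rose and 6 fell, and for complex V 0 rose and 3 fell. With library totals these MATIP counts were 1 and 12, 0 and 14, 0 and 6 and 0 and 3, so the rises of Cox14 and Ttc19 were not called.

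**Figure D5:**
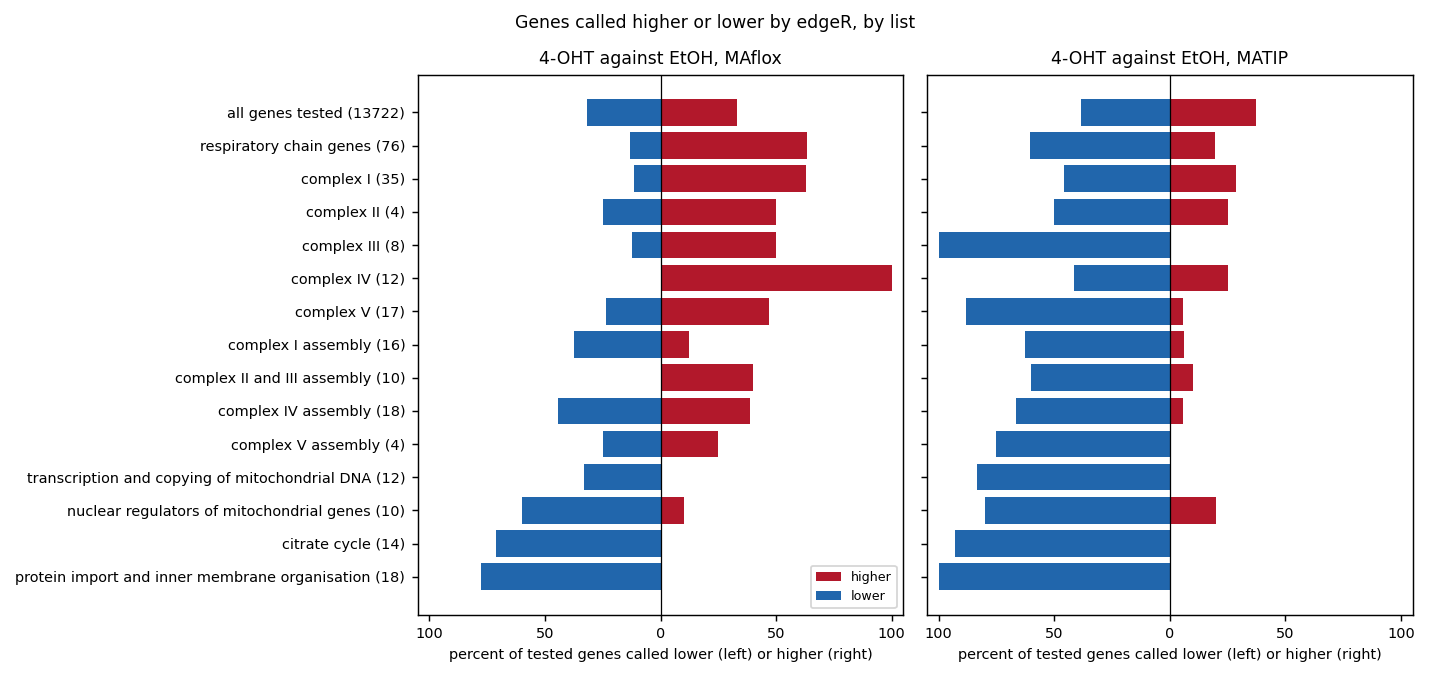
Bars give the percent of tested genes called higher (right, red) or lower (left, blue) by edgeR with 4-OHT against EtOH, in MAflox cells (left panel) and MATIP cells (right panel), with the number tested in brackets. Complex IV reaches 100% higher in MAflox cells (3 of 12 higher and 3 lower with the length and GC trend removed), and complex III (6 of 8 with the trend removed) and the import list reach 100% lower in MATIP cells; both bars of all tested genes lie between 32.1% and 38.6%.

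Of 6 tested subunits and carriers that the symbol rule left out 5 fell and 1 rose in MATIP cells, and 3 rose and 3 fell in MAflox cells (1 and 4 with the length and GC trend removed, 1 and 3 with library totals). Atpif1, which inhibits the ATP synthase, went from 203 and 193 to 50.4 and 51.2 CPM in MATIP cells (log2 −1.96 ± 0.06) and from 246 and 235 to 263 and 286 CPM in MAflox cells (log2 0.19 ± 0.06). Its difference of −2.15 ± 0.08 was wider than that of Ndufv3. Cyc1, the cytochrome of complex III, fell from 234 and 219 to 111 and 119.6 CPM and Cycs, cytochrome c, from 167 and 147 to 80.2 and 91.9 CPM in MATIP cells. Of 12 genes that transcribe or copy mitochondrial DNA 10 fell in MATIP and 4 in MAflox cells, with no rise. In MAflox cells 8 fell and 1 rose with the length and GC trend removed, when 1 also rose in MATIP cells, and 9 fell with library totals. The helicase Twnk, listed as Peo1, went from 41.3 and 39.5 to 11.1 and 12.1 CPM and from 43.2 and 41.1 to 22.5 and 21.3 CPM.

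Of 10 tested nuclear regulators of mitochondrial genes 8 fell and 2 rose in MATIP cells, and 6 fell and 1 rose in MAflox cells (6 and 2 with the length and GC trend removed, 8 and 1 with library totals). Factors of 4 of the motifs searched above are given here from this list, and these fell in MATIP cells: Nrf1 from 56.7 and 57.7 to 38.1 and 38.7 CPM (log2 −0.58 ± 0.07), Gabpa from 121 and 125 to 79.1 and 70.8 CPM (log2 −0.72 ± 0.06), Yy1 from 159.6 and 166 to 94.7 and 98.9 CPM (log2 −0.75 ± 0.06) and Esrra from 48.1 and 44.7 to 34.3 and 38.7 CPM (log2 −0.34 ± 0.08). Listed factors of the E-box or the CRE are not given, so these are not all of the motif factors listed. In MAflox cells Nrf1, Gabpa and Yy1 fell too (log2 −0.23 ± 0.07, −0.48 ± 0.06 and −0.13 ± 0.06) and Esrra rose (log2 0.52 ± 0.08), and all 4 differences of the responses were called as lower in MATIP cells (−0.35, −0.24, −0.61 and −0.87). Pprc1, a coactivator of these factors, fell in both lines, from 85.7 and 90.8 to 23.2 and 20.2 CPM and from 116 and 106 to 37.9 and 37.6 CPM. The related coactivator Ppargc1a was near 0 in 6 libraries (0 to 0.127 CPM) and at 4.43 and 3.61 CPM in MATIP 4-OHT. Gabpa shares 397 exon bases with Atp5j on the opposite strand.

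By the authors' deposited table, 48 of the 76 genes are higher and 10 lower at an adjusted p under 0.05 in MAflox cells and 15 higher and 43 lower in MATIP cells, and the largest gap between its log2 fold changes and those given here is 0.047. Counts of some genes are uncertain because the sources used here do not give the strandedness of the counting or the treatment of reads that map to several places. Exon bases are shared with another annotated gene by 27 of the 76, 5 of them on the same strand. A second annotated transcript at least 98% identical over at least 100 bases exists for 13 of the 76, among them Ndufa12, Ndufb4, Uqcr11, Cox5b, Atp5g1, Atp5g2, Atp5h and Atp5l, and also for Ndufs5, which is listed at 0 counts in every library.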

How the data were processed

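RNA-seq was analysed for 8 libraries in 4 groups of 2. Per the submitters' processing notes, the deposited counts per gene symbol on mm10 came from reads handled with Trimmomatic 0.38.0, HISAT2 2.1.0 and featureCounts 1.6.4; neither strandedness nor the annotation, nor how multi-mapped reads were counted, was given in the sources used here. The table's 23 empty columns were not used. Of the counts from 1 to 9, 77.3% were even, so the number of independent fragments may be below the totals of 41101309 to 57312490. The authors also deposited log2 fold changes and adjusted p-values, made with DESeq2 per the submitters' processing notes.

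The counts were tested with edgeR 4.0.16 (R 4.3.3): genes kept by filterByExpr (minimum count 10, minimum total 15), TMM scaling, 1 coefficient per group, quasi-likelihood tests and Benjamini-Hochberg adjustment over the 13722 genes tested, at 0.05. The common biological coefficient of variation was 5.98%, with 4 residual degrees of freedom. Libraries of 1 group differed by more than counting noise (chi-square divided by its degrees of freedom was 7.09 to 13.1). On simulated data for the MATIP comparison (13364 genes) the test recovered 62 of 97 genes changed by log2 0.5 and 84 of 99 changed by 1, with 8 false calls. Only 200 genes were drawn to change in the simulation, and it held no length trend. In the data 10441 of 13722 genes were called in that comparison. These figures therefore do not give the error of the calls reported here. The genes and lists were chosen with earlier results of these data known. Named genes were, per comparison and complex, the 2 largest rises and falls among called genes of at least 5 CPM, all of complex II, the catalytic genes, the isoform sets, and in each pathway list the called gene of smallest p in each direction. Outside this rule, after their values were seen, were named Ndufs7, Ndufa2, Ndufa3, Ndufb3, Ndufb7, Ndufs4, Ndufc1, Uqcr10, Uqcr11, Uqcrb, Atp5j, Cyc1, Nrf1, Gabpa and Yy1, besides genes named for having no call, no counts or a near-identical copy.

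Transcript length and GC content came from the principal transcript in GENCODE M21 and were known for 96.2% of tested genes; their trend (natural splines, 5 degrees of freedom) was fitted over all genes and entered as an offset. FPKM values were computed from TMM-scaled CPM and that length. Copies were searched with BLAST 2.17.0. Alternatives were DESeq2 1.42.0, other scalings, no filter, fewer groups in the fit, a replicate block, the offset, a 1.5-fold minimum and leaving out each library. Counting Ndufa4 with complex IV was chosen after seeing the data. Some genes are not reported here by name, though they stay in the fits and in the counts.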

Additional observations from a re-analysis of the deposited data

Results flagged for a closer look

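The responses of the 2 lines to 4-OHT differed by the test of the difference itself (MATIP minus MAflox, edgeR quasi-likelihood, Benjamini-Hochberg) for 33 of the named respiratory chain genes, given here as log2 values. All but 2 of the 33 were lower in MATIP cells. The naming rule took in the largest called differences of each complex, so this tally follows in part from the selection. Of all 76 genes 59 were lower and 2 higher, beside 33.6% and 28.3% of all genes.

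In complex I the lower values were those of Ndufv3 (−1.89), Ndufb4 (−1.07), Ndufb10 (−1.04), Ndufs1 (−0.72), Ndufa13 (−0.40), Ndufa11 (−0.30) and Ndufa4 (−0.29), and Ndufa10 was higher (0.39). In complex II Sdhd was lower (−0.88) and Sdha higher (0.52). Complex III had Uqcrh (−1.03), Uqcrc2 (−0.87), Uqcrq (−0.71), Uqcrfs1 (−0.53) and Uqcrc1 (−0.34). In complex IV the values were Cox7a1 (−0.98), Cox7b (−0.81), Cox5b (−0.78), Cox4i1 (−0.73), Cox7a2 (−0.71), Cox6b1 (−0.59), Cox7a2l (−0.54), Cox5a (−0.45) and Cox8a (−0.40). Complex V had Atp5c1 (−1.01), Atp5s (−0.96), Atp5b (−0.82), Atp5g1 (−0.82), Atp5g2 (−0.76), Atp5h (−0.75), Atp5l (−0.67), Atp5e (−0.63) and Atp5g3 (−0.30). Of the 33 genes 19 kept their call with the length and GC trend removed, and Ndufa4 (0.53) and Atp5g3 (0.23) were called in the opposite direction. The other 12 had no call then: Ndufa11, Uqcrfs1, Cox5a, Cox6b1, Cox7a1, Cox7a2, Cox7a2l, Cox7b, Cox8a, Atp5e, Atp5l and Atp5s. Of the 33, the calls of Ndufa4, Cox7a1 and Atp5g3 were lost without MATIP 4-OHT replicate 1, and that of Cox7a1 also without MAflox EtOH replicate 2 or MAflox 4-OHT replicate 1.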

How the results depend on the processing

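Counts below are of the 76 genes, as higher and lower. Library totals in place of TMM gave 30 and 19 in MAflox cells (median log2 0.064), 7 and 59 in MATIP cells (median −0.398), and 1 and 14 between the untreated lines. With the length and GC trend removed the counts were 18 and 35 in MAflox cells (median −0.0948), a median of −0.173 in MATIP cells, 19 and 27 for the difference of the responses (median −0.128), and 11 and 2 between the untreated lines (median 0.0513); with the replicate block added to this offset they were 18 and 35 (median −0.0954), a median of −0.173, and 19 and 28 (median −0.128). A minimum of 1.5-fold left 14 and 2 in MAflox cells, 2 and 17 in MATIP cells, 0 and 37 for the difference, and 0 and 0 between the untreated lines, beside 20.8% and 17.6%, 29.0% and 25.5%, 21.3% and 22.4%, and 7.51% and 5.25% of all genes. DESeq2 size factors in edgeR gave 4 genes with a higher difference, and 1 higher and 11 lower between the untreated lines. Between those lines DESeq2 called 13 lower, no filter gave 1 higher and 13 lower, and a fit of only the groups compared 14 lower.

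Leaving out 1 library at a time gave 39 to 49 higher and 7 to 10 lower in MAflox cells (median 0.203 to 0.288), 8 to 15 and 35 to 50 in MATIP cells (median −0.331 to −0.151, the latter without MATIP 4-OHT replicate 1), 2 to 3 and 54 to 60 for the difference (median −0.630 to −0.467), and 0 to 3 and 3 to 12 between the untreated lines (median −0.0757 to 0.0105). No called gene changed sign in these fits.

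Medians that turned with the offset, without and with the block, were complex I in MAflox cells (−0.0939 and −0.0937) and for the difference (0.0337 and 0.0352), complex II (−0.268 and −0.268), III (−0.0962 and −0.0960) and V (−0.231 and −0.233) in MAflox cells, and complex IV in MATIP cells (0.0624 and 0.0624) and, with the offset alone, between the untreated lines (0.0972; −0.0828 to 0.00442 without 1 library at a time, the latter without MAflox EtOH replicate 1). With library totals the MAflox medians of complexes II, III and V were −0.107, −0.0025 and −0.0268. With the offset 22 of the 48 genes that rose in MAflox cells turned in sign, and 9 of these were called lower (Ndufa4, Ndufc2, Ndufv2, Sdhd, Cox5a, Cox5b, Cox7b, Atp5c1 and Atp5l). In MATIP cells 2 of the 46 that fell turned (Uqcrb, called higher, and Atp5k), and of the 59 lower differences 14 turned, 5 of them called higher (Ndufa4, Ndufb6, Uqcrb, Cox7c and Atp5g3). Among the genes that the naming rule picked for the comparison itself, values that turned with the offset were Cox5a (−0.17), Ndufa4 (−0.34), Ndufv1 (−0.15), Sdhd (−0.21) and Uqcrfs1 (−0.26) in MAflox cells and Ndufa4 in MATIP cells (0.18), and with library totals Ndufv1 (−0.17) and Sdhd (−0.0334) in MAflox cells. Beyond what the offset and scaling do by construction, the cause was not tested.

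Replicate numbers are shared between groups, but same-numbered libraries did not deviate together over the tested genes (r = −0.0023 in MAflox and −0.0391 in MATIP cells). With 2 libraries per group this cannot decide whether same-numbered libraries share a culture or another origin. With the replicate block 47 rose and 10 fell in MAflox cells, 15 and 46 in MATIP cells, and 2 and 59 differed. The block was not run between the untreated lines, and the difference of the responses needs all 4 groups, so no smaller fit was run for it. Depth limits Cox7a1 and Atp5s, the genes with the fewest counts.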
